A study of Mus musculus with 21 samples.

Results

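Sciatic nerve of Trembler mice (TR) was compared with that of mice carrying a Pmp22 transgene (TG) at postnatal day 60 (P60). The comparison rests on 4 of the 21 arrays of the series, 2 per group, which were taken by their titles, and on all 12422 probe sets that are not control spots. TR mice carry the Trembler point mutation of Pmp22, and TG mice carry a Pmp22 transgene from a line with increased Pmp22 gene dosage. For the zygosity of Trembler and for the promoter and copy number of the transgene, the sources used here give nothing. Wild-type mice of mixed background (WT, 3 arrays at P60) served as the reference for both mutants. Arrays of TR and TG nerve from postnatal day 4 (P4, 3 per group) gave the same contrast at an early age, and arrays of Pmp22 knockout mice, null on both alleles (KO), entered the fit as further groups. Every array held RNA from nerves of 4 to 7 mice, so that each value is that of a pool and the spread between arrays is the spread between pools.

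Pmp22 encodes a tetraspan membrane glycoprotein of compact peripheral myelin, made mainly by Schwann cells. Extra copies of the gene cause demyelinating neuropathy in mice and, as Charcot-Marie-Tooth disease type 1A, in people, whereas the Trembler allele encodes an altered protein that is retained inside the cell and acts dominantly. The comparison asks how an adult nerve with an altered Pmp22 protein differs from an adult nerve of a line with increased Pmp22 gene dosage.

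Values are the deposited expression index, an intensity on a linear scale. They were raised to a floor of 54.7 and put on the log2 scale, and log2 differences are given as TR minus TG ± the standard error of the limma fit. A probe set was called when its Benjamini-Hochberg adjusted p over all 10994 probe sets tested was under 0.05. In a bulk nerve, fewer cells of a type and less RNA per cell cannot be told apart.

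The promoters of 3 called genes are shown first because 2 of them belong to near-identical heat shock genes and the third to the only called gene of cholesterol synthesis. The sequences are the 250 bases upstream of the start site from RefSeq (GRCm38.p6), 5′ to 3′, with motif matches in capitals. For Hspa1a (chr17:34972157-34972406, minus strand) and Hspa1b (chr17:34959239-34959488, minus strand) the capitals mark GAANNTTC, the core to which heat shock factors bind. For Hmgcs1 (chr13:119690101-119690350, plus strand) they mark TCACNCCAC, a form of the sterol regulatory element bound by SREBP proteins.
Hspa1a: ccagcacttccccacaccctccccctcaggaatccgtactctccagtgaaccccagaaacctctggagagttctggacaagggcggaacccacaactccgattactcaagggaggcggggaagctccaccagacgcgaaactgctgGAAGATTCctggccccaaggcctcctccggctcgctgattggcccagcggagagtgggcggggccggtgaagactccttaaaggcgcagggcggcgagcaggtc
Hspa1b: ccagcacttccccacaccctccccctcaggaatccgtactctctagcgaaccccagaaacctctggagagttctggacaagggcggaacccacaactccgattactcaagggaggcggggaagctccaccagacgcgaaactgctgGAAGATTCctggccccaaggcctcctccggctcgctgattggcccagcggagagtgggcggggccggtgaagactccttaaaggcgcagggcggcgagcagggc
Hmgcs1: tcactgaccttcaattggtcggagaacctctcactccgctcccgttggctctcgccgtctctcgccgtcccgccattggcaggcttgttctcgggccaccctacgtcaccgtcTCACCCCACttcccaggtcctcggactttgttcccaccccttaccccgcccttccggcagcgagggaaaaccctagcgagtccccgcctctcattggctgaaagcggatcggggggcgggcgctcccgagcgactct
The windows of Hspa1a and Hspa1b were the same at 247 of 250 positions (98.8%), and each held 1 match that began 104 bases upstream of the start site. Hmgcs1 held 1 match, 137 bases upstream. Searched on both strands, GAANNTTC was found in 6.69% and TCACNCCAC in 1.05% of the same windows of 32851 RefSeq promoters. A match is a description of the letters and not of a binding site.

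The arrays were of like brightness, with medians of the index between 192.2 and 209.6 on the 4 arrays and between 78.6% and 80.8% of probe sets above the floor. Taken over probe sets, which do not count as replicates, TG_1 and TG_2 correlated at r = 0.969 and TR_1 and TR_2 at 0.944, while TR_1 lay closer to TG_1 (0.957) than to TR_2. The gap between the arrays of a group exceeded 1 on the log2 scale for 8.3% of probe sets in TR and for 2.67% in TG. Both TG arrays were the only ones scanned on their day and the TR arrays were scanned on 2 other days, TR_1 on the same day as the third WT array, so that scan day and TG genotype cannot be told apart. Xist, which is transcribed from the inactive X chromosome of females, read 144 and 1476 in TG, 7.61 and 3.47 in TR, and 630, 227 and 319 in WT. At P4 it read 1111, 1192 and 942 in TR and 340, 738 and 238 in TG, so that the TR pools were high at P4 and under the floor at P60. Eif2s3y, a Y-linked gene looked up after the data were seen, read 258 and 91.7 in TG and 254.5 and 85.4 in TR at P60. At P4 it read 84.9, 84.4 and 81.3 in TG and lay under the floor on all TR arrays. Kdm5d, also Y-linked, lay under the floor on the TG and TR arrays of P60 and near or under it at P4. The sex of the pooled mice is not given in the labels, and its part in the results was not tested. Schwann cell genes marked the tissue: Mbp read between 2996 and 5151 and Sox10 between 1171 and 1594 on the 4 arrays.

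Of 10994 probe sets tested, 144 were called (1.31%), 72 higher and 72 lower in TR than in TG. Their log2 differences ran from -4.66 to 3.43, with none smaller in size than 0.557, and 118 of them carried 1 gene symbol. At gene level, with the brightest probe set of each of 7703 genes, 49 genes (0.636%) were higher and 48 (0.623%) lower in TR. Against WT, 517 probe sets were called in TR (4.7%, 181 higher and 336 lower) and 418 in TG (3.8%, 156 higher and 262 lower). The balance of the TR calls against WT was 284 higher and 154 lower without TR_2, and 89 higher and 290 lower without TR_1, and the TG count was 118 without TG_2. These comparisons share arrays with each other, and their values are given side by side only.

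The count rested strongly on 1 array. Without TG_2 it was 28, 21 of them among the 144, and with scan day as a random block it was 32, all among the 144. Which way the calls pointed also rested on single arrays, with 142 higher and 26 lower in TR without TR_2, and 46 higher and 114 lower without TR_1. Of the 37 called probe sets that are named here by rule, 6 passed the threshold whichever of the 4 arrays was left out, and these 6 also passed with scan day as a random block: Fbp1, Rasd1, Mertk and Kcnk1, which were lower in TR, and Hspa1a and Cxcl10, which were higher. Without TG_2 only these 6 of the 37 passed, against 23 without TG_1, 19 without TR_1 and 24 without TR_2.

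**Figure D1:**
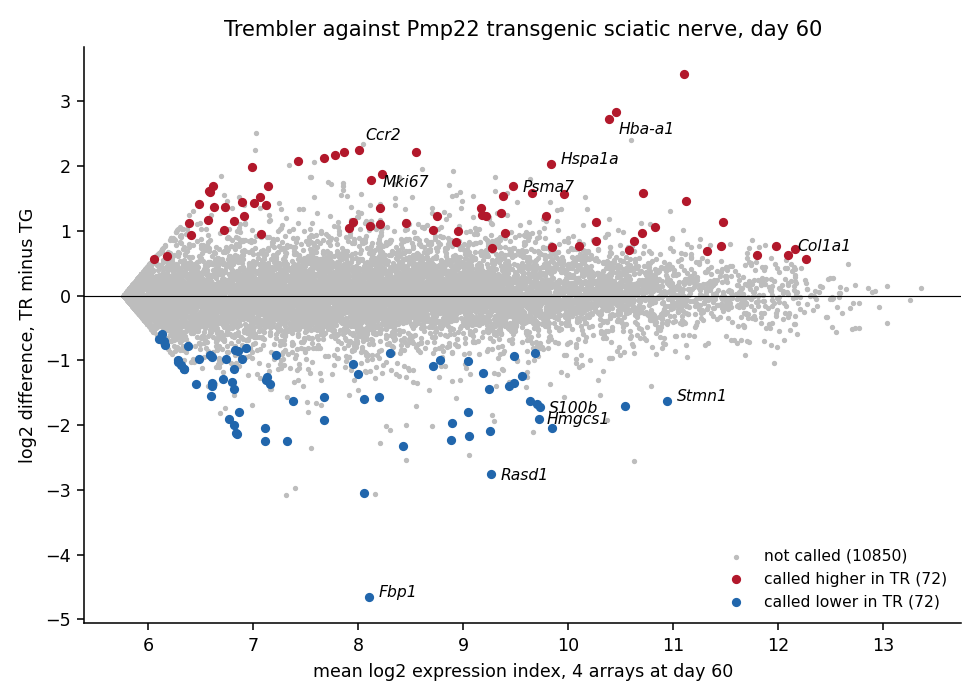
Log2 difference of TR minus TG at P60 (vertical axis) against the mean log2 expression index of the 4 arrays (horizontal axis) for the 10994 probe sets tested. Grey points were not called, red points are the 72 called higher and blue points the 72 called lower in TR. Fbp1 lies lowest at -4.66, and the wedge at the left edge comes from values raised to the floor.

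Pmp22 itself was read by a pair of probe sets, and neither was called. On the brighter one the index was 7388 and 8553 in TG, 5637 and 5469 in TR, and 7162, 6732 and 6791 in WT. Both TR arrays lay below both TG arrays and below the 3 WT arrays. The log2 difference of TR minus TG was -0.52 ± 0.13 (adjusted p = 0.0687). On the same probe set the 2 KO arrays read 5680 and 4797, so that its level does not check the genotype labels. The dimmer probe set read 119 and 97.8 in TG, and 53.3 and 40.7 in TR, both at or below the floor, a level at least 1.97-fold lower than in TG (adjusted p = 0.0687). Its WT arrays read 145, 133 and 89.6, so that TG overlapped WT, and TR minus WT was called (-1.13, adjusted p = 0.00656). TG minus WT was not called on either probe set, at 0.21 (adjusted p = 0.461) on the brighter and -0.15 (adjusted p = 0.871) on the dimmer one.

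Myelin protein genes read lower in TR than in TG for all 9 measured, with 1 call. Of 18 genes on the list, these 9 were measured, and all 9 had TR arrays that did not overlap the TG arrays. Over all genes, 19.2% did not overlap with TR lower, 18.4% with TR higher, and 37.6% in either direction. Of all 7703 genes, 3803 had positive and 3710 negative differences. Called higher were 0.636% of them and called lower 0.623%, and these values are to be set beside each list below. The median of the myelin list was -0.55, beside a median of 0 over all 7703 genes. Only Cd82, a tetraspanin that is found in myelinating Schwann cells, was called. Its index was 1418 and 1382 in TG, 565 and 359 in TR, and 1110, 948 and 514 in WT, so that the TR arrays were low but the third WT array lay between them. The difference was -1.64 ± 0.37 (adjusted p = 0.0338), and a dimmer probe set of Cd82 gave -0.21 and was not called. The adjusted p was 0.204 without TG_2 and 0.264 with scan day as a random block.

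Mbp, which encodes myelin basic protein of the compacted membrane, read 4854 and 5151 in TG and 2996 and 3881 in TR on its brightest probe set (-0.55 ± 0.14, adjusted p = 0.0693). Its WT arrays read 5768, 5088 and 5123 and overlapped the TG arrays. Another Mbp probe set, dim and singled out after its values were seen, was called at -0.98 ± 0.20 (adjusted p = 0.0166), with 153 and 183 in TG, 108 and 66.4 in TR, and 69.2, 81.3 and 94.1 in WT. On that dim probe set the TG arrays were the high ones, and TR overlapped WT. Mal, a proteolipid of myelin membranes, read 1782 and 2260 in TG and 1449 and 824 in TR, and Gjb1, the gap junction protein connexin 32 of non-compacted myelin, read 98.1 and 99.8 in TG and 73.0 and 59.4 in TR. Neither was called (adjusted p = 0.177 and 0.462).

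Lipid synthesis showed the same direction with fewer calls. Of 19 measured genes of fatty acid and myelin lipid synthesis, 14 had negative differences. The arrays of 12 did not overlap, with TR lower (19.2% over all genes), none was called, and the median was -0.44. Gpam, which starts glycerolipid synthesis, read 1114 and 1176 in TG, 844 and 583 in TR, and 558, 549 and 611 in WT. Scd2, a fatty acid desaturase, read 8004 and 8147 in TG, 5979 and 5492 in TR, and 7836, 7609 and 8503 in WT. Their differences were -0.71 (adjusted p = 0.124) and -0.49 (adjusted p = 0.142).

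Cholesterol synthesis genes were below WT in both mutants by median and differed less between the mutants. The list median of 16 measured genes was -0.19 for TR minus TG, while it was -1.25 for TR minus WT and -1.15 for TG minus WT. For TR minus TG, 10 differences were negative and 5 positive, and 6 genes did not overlap with TR lower (19.2% over all genes). Sqle, which oxidises squalene, read 468 and 606 in TG, 447 and 421 in TR, and 1534, 1714 and 1530 in WT. Both mutants were low there, with the TR arrays below the TG arrays by less than either lay below WT. The only call was Hmgcs1, the cytosolic synthase that makes HMG-CoA and whose promoter is printed above. Hmgcs1 read 1239 and 1779 in TG, 480 and 450 in TR, and 2486, 2134 and 2389 in WT, so that TR was lowest, TG intermediate and no groups overlapped. TR minus TG was -1.68 ± 0.31 (adjusted p = 0.0116), a level 3.19-fold lower in TR. The adjusted p was 0.176 without TG_2 and 0.0716 with scan day as a random block.

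**Figure D2:**
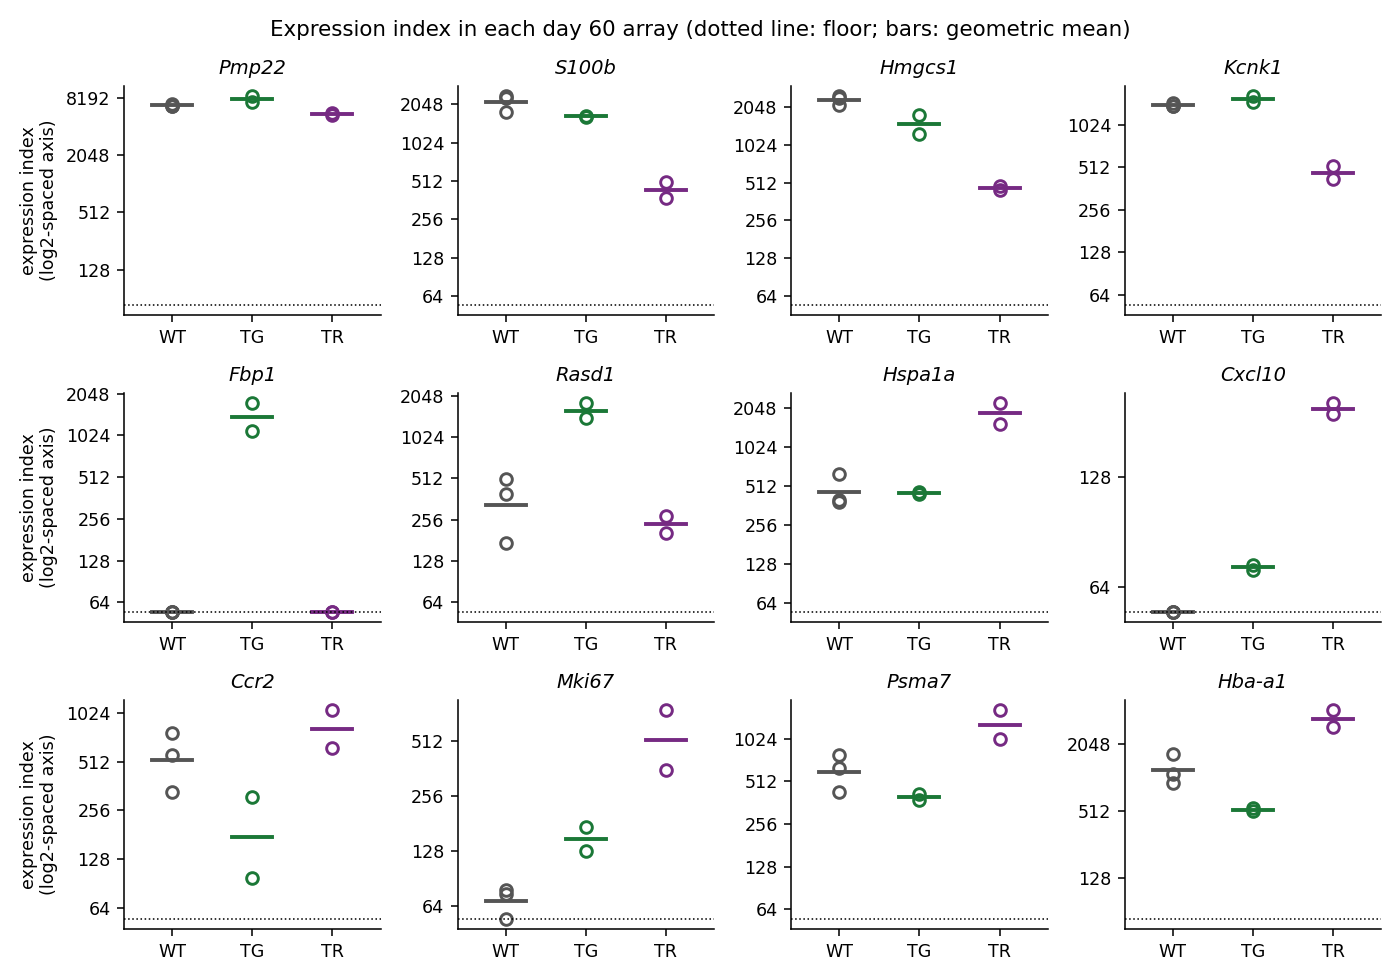
Expression index of 12 genes in each P60 array on a log2-spaced axis, with WT in grey (3 arrays), TG in green (2) and TR in purple (2). Circles are arrays, with values under the floor drawn at the floor (dotted line), and bars are geometric means. S100b, Hmgcs1 and Kcnk1 are low in TR, Fbp1 and Rasd1 are high in TG, and Hspa1a and Cxcl10 are high in TR.

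Among genes of immature and injured Schwann cells, 3 of 27 measured were called higher and 1 lower in TR, with a list median of -0.05. Of all genes, 0.636% were called higher and 0.623% lower. S100b, the list member called lower, is a calcium-binding protein that also marks myelinating Schwann cells. In WT it read 673, 733 and 895 at P4, below its P60 values. At P60 it read 1620 and 1661 in TG, 504 and 379 in TR, and 2273, 2361 and 1765 in WT. The TR arrays lay below all others, and the difference was -1.91 ± 0.33 (adjusted p = 0.00732). Cxcl10, a chemokine induced by interferons, read 73.3 and 71.4 in TG, 203 and 190 in TR, and between 32.5 and 47.8 in WT, under the floor. Its difference was 1.44 ± 0.19 (adjusted p = 0.00119), and the TR arrays lay above all TG and WT arrays. Ccl2, the chemokine that draws monocytes through Ccr2, read 116 and 60.5 in TG, 494 and 255 in TR, and 221, 230 and 167 in WT. TG was the low group and TR the high one, with a difference of 2.08 ± 0.42 (adjusted p = 0.0157). Nrcam, a cell adhesion molecule of the node of Ranvier, read 185 and 186 in TG, 616 and 365 in TR, and 171, 250 and 184 in WT (1.35 ± 0.30, adjusted p = 0.0298). Leaving out TG_2 gave an adjusted p of 0.0253 for Cxcl10, and 0.0776, 0.268 and 0.192 for S100b, Ccl2 and Nrcam. With the scan day block S100b (0.034) and Cxcl10 (0.00934) passed, and Ccl2 (0.0874) and Nrcam (0.131) did not.

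Of 17 measured genes of axon contact, adhesion and channels, Nrcam was called higher and Kcnk1 lower, and the median was -0.09. Kcnk1, a potassium leak channel, read 1623 and 1473 in TG, 521 and 422 in TR, and 1390, 1445 and 1395 in WT. TG lay with WT and TR stood apart below them, with a difference of -1.72 ± 0.26 (adjusted p = 0.00257). The 21 measured Schwann cell transcription regulators had no called gene and a median of -0.01, and Sox10 differed by 0.41 ± 0.25 (adjusted p = 0.569).

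Cell cycle genes read mostly higher in TR by count, with few calls. Of 43 measured, 34 had positive differences and 19 did not overlap with TR higher (18.4% over all genes). From the list 2 were called higher and 1 lower (0.636% and 0.623% over all genes). The median was 0.27 (0.10 to 0.50 over 13 alternative settings). The summed index was 16240 and 16610 in TG and 21250 and 15950 in TR, so that TR_2 lay below both TG arrays. Mki67, the proliferation marker, read 129 and 174 in TG, 753 and 356 in TR, and 75.3, 49.6 and 78.8 in WT. The levels ran from WT through TG to TR without overlap, and TR minus TG was 1.79 ± 0.37 (adjusted p = 0.0203). Cdk1, the kinase that drives entry into mitosis, read 71.9 and 86.6 in TG, 328 and 196 in TR, and no more than 55.5 in WT (1.68 ± 0.33, adjusted p = 0.0146). Aurkb, a mitotic kinase that was not called, read 137 and 92.7 in TG and 314 and 335 in TR (adjusted p = 0.0568).

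The called gene that went the other way was Stmn1, a microtubule-destabilising protein, which read 3160 and 3760 in TG, 1446 and 856 in TR, and 5232, 4907 and 3699 in WT (-1.63 ± 0.24, adjusted p = 0.00263). TR was the low group there, and a second Stmn1 probe set gave -0.04 and was not called. Cdkn1a, which encodes the cell cycle inhibitor p21, was also low in TR on one probe set, with 1121 and 1419 in TG, 322 and 273 in TR, and 1278, 1353 and 875 in WT (-2.09 ± 0.36, adjusted p = 0.00658). Its brighter probe set gave -0.39 and was not called. The dimmer probe set of Mki67 gave 0.21 and was not called. In 37 of the 43 cell cycle genes TR_2 read below TR_1, and without TG_2 the adjusted p was 0.0922 for Mki67, 0.0776 for Cdk1, 0.052 for Stmn1 and 0.0945 for Cdkn1a. With the scan day block Stmn1 passed (0.0225), and the adjusted p was 0.097 for Mki67, 0.0946 for Cdk1 and 0.0965 for Cdkn1a.

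Few macrophage genes were called between TR and TG, and arrays of a group spread widely. Of 32 measured, 23 had positive differences and 11 did not overlap with TR higher (18.4% over all genes). From the list 2 were called higher and none lower (0.636% and 0.623% over all genes), and the median was 0.63. Ccr2, the receptor of Ccl2 on monocytes, read 309 and 98.2 in TG, 1060 and 622 in TR, and 564, 331 and 770 in WT. Tyrobp, an adaptor of activating receptors in myeloid cells, read 200 and 58.8 in TG, 678 and 371 in TR, and 334, 305 and 481 in WT. In both genes TG_2 was the lowest array and the TR arrays overlapped WT. The differences of TR minus TG were 2.22 ± 0.53 (adjusted p = 0.0481) and 2.21 ± 0.53 (adjusted p = 0.0485). Without TG_2 they had adjusted p values of 0.509 and 0.533, and with the scan day block 0.207 and 0.25.

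Other macrophage genes that were not called followed the same order of arrays. Lyz2, the lysozyme of myeloid cells, read 442 and 88.9 in TG, 964 and 613 in TR, and 484, 406 and 746 in WT, and Mrc1, the mannose receptor, read 239 and 44.3 in TG, 451 and 327 in TR. Adgre1, a defining marker, read 210 and 51.6 in TG and 333 and 148 in TR, so that its groups overlapped. Apoe and Fcgr3 went the other way, at -1.04 and -0.74, neither called. TG_2 read below TG_1 in 26 of the 32 genes. The summed index of the list was 19520 and 13980 in TG, 23340 and 17720 in TR, and from 18600 to 24640 in WT, so that TR_2 lay below TG_1, and the list median was 0.13 for TR minus WT and -0.29 for TG minus WT. Complement and coagulation genes had a median of 0.37 with 11 of 14 positive and none called, and genes of antigen presentation and interferon response had a median of -0.06 with none of 34 called.

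Among cytosolic chaperones the inducible Hsp70 pair stood apart in TR, while the list did not move one way. Of 26 measured cytosolic chaperones, 2 were called higher and 1 lower (0.636% and 0.623% over all genes). Differences were positive for 15 and negative for 10, and the median of 0.11 ran from -0.10 to 0.32 over 13 alternative settings. Hspa1a, an inducible Hsp70, read 461 and 443 in TG, 1543 and 2209 in TR, and 396, 385 and 628 in WT. The TR arrays stood above all TG and WT arrays, and the difference was 2.03 ± 0.29 (adjusted p = 0.00204), a level 4.08-fold higher in TR. Hspa1b, the other inducible Hsp70, read 1494 and 1210 in TG, 3224 and 4226 in TR, and 1065, 1173 and 1504 in WT (1.46 ± 0.28, adjusted p = 0.0138). With promoters that differ at 3 of 250 positions and near-identical transcripts, the probe sets of this pair can share signal, and they are not independent observations. Without TG_2 the adjusted p was 0.0333 for Hspa1a and 0.176 for Hspa1b, and with the scan day block it was 0.022 and 0.0592. Hspe1, a mitochondrial chaperonin subunit, read 292 and 233 in TG and 998 and 449 in TR and was not called (1.36 ± 0.35, adjusted p = 0.0687). Hspa2, a constitutive Hsp70 relative best known from the testis, went the other way, with 452 and 566 in TG, 169 and 172 in TR, and between 106 and 146 in WT. There TG was the high group (-1.57 ± 0.34, adjusted p = 0.0274, 0.257 without TG_2 and 0.14 with the scan day block).

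Genes of the proteasome and of ubiquitin handling read higher in TR for nearly all members, with few calls. Of 29 measured, 28 had positive differences and 21 did not overlap with TR higher (18.4% over all genes). From the list 2 were called higher and none lower (0.636% and 0.623% over all genes), and the median was 0.47. The list medians against WT were 0.39 for TR and -0.08 for TG. Psma7, a ring subunit of the 20S core, read 416 and 378 in TG, 1619 and 1013 in TR, and 433, 632 and 788 in WT. Psma1, another ring subunit, read 405 and 318 in TG, 1231 and 686 in TR, and 297, 292 and 494 in WT. In both genes the TR arrays were the highest, with TR_1 above TR_2, and the differences were 1.69 ± 0.31 (adjusted p = 0.0116) and 1.36 ± 0.30 (adjusted p = 0.0301). Psmc6, an ATPase of the regulatory particle, read 2345 and 2160 in TG, 4197 and 3661 in TR, and between 2038 and 2109 in WT, and was not called (0.80 ± 0.21, adjusted p = 0.0723). The adjusted p without TG_2 was 0.124 for Psma7 and 0.301 for Psma1, and with the scan day block it was 0.0783 and 0.101.

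Genes of endoplasmic reticulum stress did not share a direction. Of 26 measured, 2 were called lower and none higher on the brightest probe set of each gene (0.623% and 0.636% over all genes). The median was -0.07, and Hspa5, the BiP chaperone of that compartment, read 1804 and 2034 in TG and 2091 and 1700 in TR. A dimmer probe set of Dnajc3, an inhibitor of the kinase PERK, was called higher at 1.13 ± 0.25 (adjusted p = 0.0287), with 155 and 180 in TG and 414 and 323 in TR, while its brightest one gave 0.92 (adjusted p = 0.0929). It was outside the naming rule and chosen after its values were seen, as were Cct3, a chaperonin subunit called higher at 0.83 on a dimmer probe set (adjusted p = 0.0207), and Lpl, an adipocyte lipase called lower at -1.28 on a dimmer probe set (adjusted p = 0.00108). Atf4, a transcription factor of the integrated stress response, read 1060 and 1180 in TG, 620 and 585 in TR, and 1004, 991 and 844 in WT. TR was the low group, with a difference of -0.89 ± 0.17 (adjusted p = 0.0116). Pdia4, a disulfide isomerase, read 359 and 340 in TG, 99.3 and 42.9 in TR, and 156, 135 and 43.2 in WT. TG was the high group there (-2.25 ± 0.51, adjusted p = 0.0366). Leaving out TG_2 gave an adjusted p of 0.15 for Atf4 and 0.208 for Pdia4, and the scan day block gave 0.0783 and 0.185.

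Collagens and matrix genes read higher in TR for 40 of 47 measured, with a median of 0.38. Of these, 23 did not overlap (18.4% over all genes with TR higher). The only call was Col1a1, a chain of type I collagen, which read 3777 and 3262 in TG, 5956 and 4959 in TR, and 4904, 4493 and 4642 in WT. TG lay below WT and TR above it, and the difference was 0.63 ± 0.14 (adjusted p = 0.0288, 0.313 without TG_2 and 0.128 with the scan day block). Postn, the matricellular protein periostin, read 1895 and 1832 in TG, 3385 and 2945 in TR, and 945, 585 and 1585 in WT, and was not called (adjusted p = 0.271). TG_2 read below TG_1 in 39 of the 47 genes. Markers of endoneurial and perineurial fibroblasts, cells that make this matrix, had no call among 18, with 11 positive differences and a median of 0.16 that ran from -0.10 to 0.53 over 13 alternative settings. They summed to 23670 and 13830 in TG, 24030 and 18120 in TR, and from 24570 to 32530 in WT, so that TG_2 was lowest and the TG and TR arrays overlapped. The part of these cells in the matrix values was not tested.

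**Figure D3:**
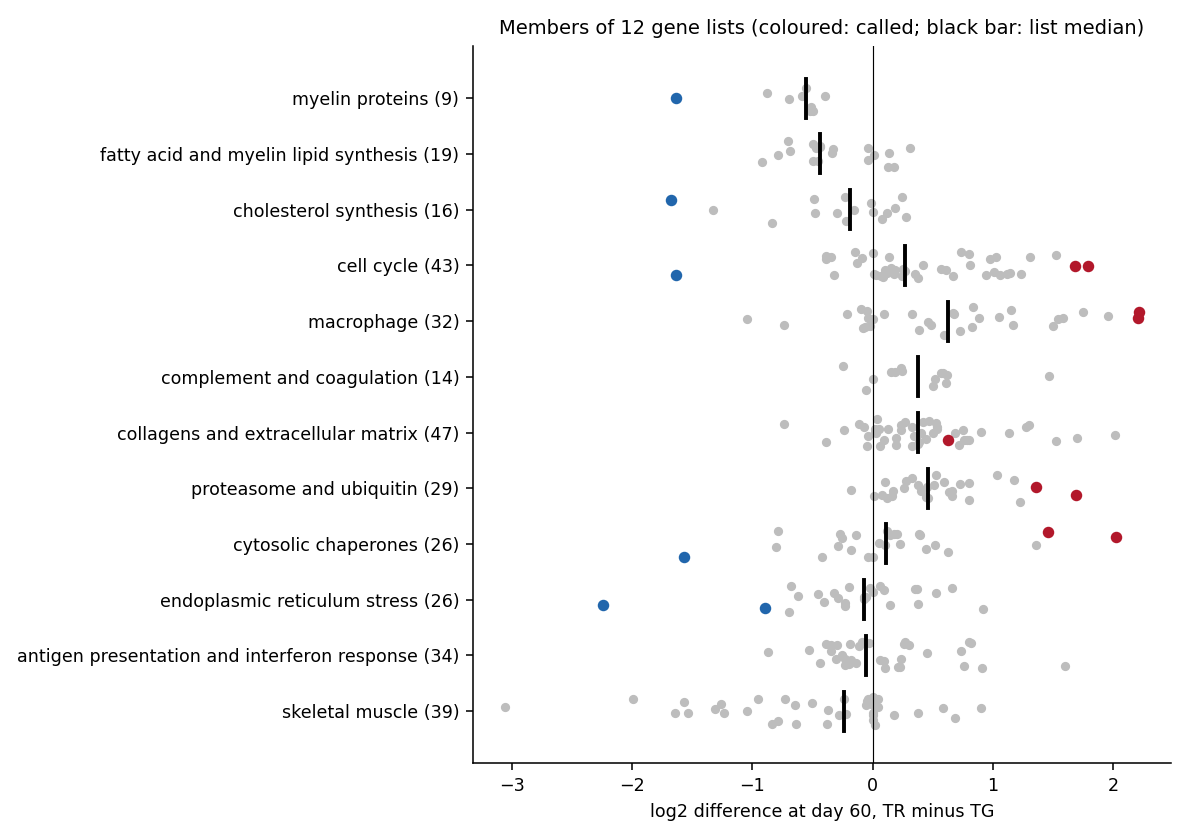
Log2 difference of TR minus TG at P60 for every measured member of 12 gene lists, with the number measured in brackets. Grey points were not called, red points were called higher and blue points called lower in TR, and black bars are list medians, which run from -0.55 for myelin proteins to 0.63 for macrophage genes.

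Among the named genes, the largest rises in TR were those of hemoglobin. Hbb-b2 read 841 and 326 in TG, 3169 and 4369 in TR, and 1502, 2102 and 1210 in WT, and Hba-a1 read 505 and 538 in TG, 2913 and 4088 in TR, and 1103, 1672 and 904 in WT. TR stood highest and TG lowest in both, with differences of 2.83 ± 0.50 (adjusted p = 0.00874) and 2.73 ± 0.64 (adjusted p = 0.0476), and the beta-globin genes can share signal. Alas2, which starts heme synthesis in red cell precursors, read 5.83 and -5.39 in TG and 101 and 123 in TR. The 19 measured erythroid and blood genes, Hba-a1 among them, summed to 6862 and 6923 in TG and to 9045 and 11310 in TR. Only Hba-a1 was called, and it made up much of the difference in these sums. The list median was 0.09, with 13 positive and 6 negative differences. The amount of blood in the pools was not tested. Without TG_2 the adjusted p was 0.172 for Hbb-b2 and 0.247 for Hba-a1, and with the scan day block it was 0.029 and 0.097.

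Skeletal muscle genes, which mark fibres taken along with the nerve, had no call among 39 and a median of -0.24. Their summed index was 25350 and 14480 in TG, 14530 and 11360 in TR, and from 31040 to 44560 in WT. Tnnt3, a fast muscle troponin, read 1671 and 409 in TG and 179 and 34.7 in TR. The part of muscle in the results was not tested. Adipocyte genes summed to 17660 and 14910 in TG and to 14000 and 11740 in TR, with none of 16 called on the brightest probe set and a median of -0.19. Genes of T and B lymphocytes, mast cells, endothelium, smooth muscle and pericytes, lysosome and autophagy, and neurons and axons had no call, and their medians lay between -0.23 and 0.04.

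The genes lower in TR were led by genes that were high in TG rather than low in TR. Fbp1, the fructose-1,6-bisphosphatase of gluconeogenesis, read 1094 and 1741 in TG, 37.3 and 37.3 in TR, and 18.7, 8.57 and 37.8 in WT. All TR and WT arrays lay under the floor, so that the level in TR was at least 25.2-fold lower than in TG (adjusted p = 6.29e-09). The KO arrays read 203 and 130. Rasd1, a Ras-like protein first found as dexamethasone-induced, read 1414 and 1802 in TG, 206 and 272 in TR, and 506, 397 and 175 in WT. TG stood above both, and TR overlapped WT (-2.75 ± 0.35, adjusted p = 0.00108). Mertk, a receptor tyrosine kinase through which phagocytes take up dying cells, read 235 and 335 in TG, 80.6 and 57.5 in TR, and 71.4, 58.8 and 46.3 in WT (-2.04 ± 0.27, adjusted p = 0.00119). Again TG was the high group.

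Others shared that pattern with less stability. Sowaha, an ankyrin-repeat gene, read 930 and 953 in TG, 223 and 257 in TR, and 127, 172 and 91.2 in WT (-1.98 ± 0.34, adjusted p = 0.00658). Slain1, a microtubule plus-end protein, read 217 and 270 in TG, whereas TR and WT arrays lay under the floor, at least 4.42-fold lower in TR than in TG (adjusted p = 0.0138). The adjusted p without TG_2 was 0.074 for Sowaha and 0.157 for Slain1, and both passed with the scan day block (0.0288 and 0.0387).

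A second set was low in TR relative to both TG and WT or varied within WT. Tmem50b, a small membrane protein gene, read 788 and 746 in TG, 200 and 118 in TR, and 1377, 1361 and 431 in WT (-2.32 ± 0.50, adjusted p = 0.0278), but its other probe set gave 0.39 and was not called. Sncb, which encodes beta-synuclein, read 391 and 232 in TG, 74.3 and 30.7 in TR, and 193, 196 and 135 in WT (-2.24 ± 0.44, adjusted p = 0.0152). Stx6, a SNARE protein of endosome and Golgi traffic, read 349 and 451 in TG, 141 and 78.4 in TR, and 258, 230 and 221 in WT (-1.92 ± 0.38, adjusted p = 0.0151). In these 3 genes the TR arrays lay below every WT array.

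Gbp2b, an interferon-inducible GTPase, read 225 and 255 in TG, below 0 on both TR arrays, and 320, 188 and 12.9 in WT. Its level in TR was at least 4.37-fold lower than in TG (adjusted p = 0.0288). Per1, a circadian clock gene, read 236 and 215 in TG, 58.0 and 17.7 in TR, and 186, 268 and 54.2 in WT (adjusted p = 0.0321), with TR_2 under the floor. For both, the third WT array, which shared its scan day with TR_1, lay near the TR level while the other two lay near TG. Without TG_2 the adjusted p values of Tmem50b, Sncb, Stx6, Gbp2b and Per1 ran from 0.052 to 0.219, and with the scan day block from 0.106 to 0.231.

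Further genes at the top of the ranking were higher in TR. Arhgef3 read 209 and 118 in TG, 532 and 623 in TR, and 306, 249 and 394 in WT (1.87 ± 0.43, adjusted p = 0.0384). Wwc1, which encodes the scaffold protein KIBRA, read 50.4 and 6.59 in TG, 237 and 131 in TR, and 156, 64.4 and 168 in WT, at least 3.22-fold higher in TR than in TG (adjusted p = 0.0116). Ctnna2, an alpha-catenin, read 63.4 and 63.9 in TG, 377 and 169 in TR, and 136, 180 and 134 in WT (1.99 ± 0.43, adjusted p = 0.0278), while another of its probe sets gave 0.01. In all 3 genes TG was the low group. TR_2 lay within the WT range for Wwc1 and Ctnna2, and both TR arrays lay above WT for Arhgef3. Leaving out TG_2 gave an adjusted p of 0.391 for Arhgef3, 0.1 for Wwc1 and 0.184 for Ctnna2, and the scan day block gave 0.169, 0.0946 and 0.108.

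At P4 the same contrast gave far fewer calls, 16 of 10994 (0.146%), 13 higher and 3 lower in TR. The ages use different arrays. Of the 144 probe sets called at P60, 5 were also called at P4, all in the same direction and all higher in TR: Hspa1a, Hspa1b, Cxcl10, Clvs1 and Rprm. The 144 were chosen by their P60 difference, so that a larger size at P60 than at P4 is built into the choice. Over the 144 the median size of the log2 difference was 1.30 at P60 and 0.25 at P4. At P4, 44 had the same sign, 83 the opposite sign and 17 a difference of 0, with values raised to the floor. The sign counts were not set beside those of all probe sets. The P4 count was 82 without TR_3 of that age.

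The change of the TR minus TG difference from P4 to P60 was tested directly and was called for 132 probe sets (1.2%, 75 rising and 57 falling with age). Of the 144 called at P60, 86 were among them. Both tests use the same 4 arrays of P60, so that part of this overlap is built in. For Rasd1, under the floor in both groups at P4, the 2 tests give the same difference of -2.75. Without TG_2 of P60 the age test called 10 probe sets, and without TR_3 of P4 it called 346.

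Hspa1a read 97.5, 83.5 and 80.6 in TG and 1933, 1242 and 1990 in TR at P4, a difference of 4.28 (adjusted p = 1.6e-08) that was larger than at P60 by 2.25 (adjusted p = 0.00885). The TR arrays of P4 lay in the range of those of P60 or just below it, and the TG arrays were lower at P4. Hspa1b read 477, 487 and 276 in TG and 4382, 4338 and 4389 in TR, a difference of 3.45 (adjusted p = 1.49e-07). Cxcl10 read 67.8, 78.9 and 55.7 in TG and 154, 159 and 213 in TR, a difference of 1.38 (adjusted p = 0.000261), and its change with age was 0.07 (adjusted p = 0.955). Clvs1, which encodes the lipid-binding protein clavesin 1, read 64.8, 94.2 and 97.9 in TG and 739, 597 and 758 in TR at P4, and 1269 and 739 in TG and 3766 and 2236 in TR at P60. It differed by 3.04 at P4 (adjusted p = 6.3e-05) and by 1.58 at P60 (adjusted p = 0.0481). Rprm, a p53 target that was outside the naming rule and was chosen after its values were seen, differed by 1.67 at P4 (adjusted p = 0.00123) and 1.62 at P60 (adjusted p = 0.00624), and its other tested probe set was not called at either age. Without TG_2 of P60 the adjusted p of Clvs1 at P60 was 0.454, and with the scan day block 0.192.

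Some genes turned between the ages. On the probe set called at P60, Cdkn1a read 675, 556 and 635 in TG and 1764, 1495 and 1627 in TR at P4. WT read 2274, 1965 and 1699 there at P4, so that TG was the low group and TR overlapped WT. At P60 TR was the low group. TR thus lay above TG at P4 and below it at P60, and the change with age was -3.48 (adjusted p = 0.00272). The other Cdkn1a probe set did not turn in this way, with a difference of 0.05 at P4 and a change of -0.44 with age (adjusted p = 0.551). Ccl2 read 219, 184 and 204 in TG and 112, 75.2 and 189 in TR at P4, so that TR was the lower group with an overlap, and its change with age was 2.87 (adjusted p = 0.0142). Tyrobp read 169, 172 and 381 in TG and 110, 80.3 and 158 in TR at P4, all TR arrays below TG, and its change with age was 3.20 (adjusted p = 0.0312). Neither Ccl2 nor Tyrobp was called at P4 (adjusted p = 0.483 and 0.488), and Cdkn1a was not either (adjusted p = 0.0809). Pkp2, a desmosomal plaque protein, was called lower in TR at P4 (-1.24, adjusted p = 0.0439) and was not called at P60 (0.63, adjusted p = 0.362). At P4 its TG arrays read 157, 125 and 109, while all TR and WT arrays lay under the floor. Ube2t, a ubiquitin-conjugating enzyme of DNA repair, was called lower in TR at P4 by 0.88 with values near or under the floor at P60. Its TG arrays of P4 lay above the WT arrays (66.4, 48.2 and 85.4).

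Fbp1 and Rasd1 had no such history. Fbp1 read 90.2, 48.4 and 68.5 in TG and 68.9, 72.2 and 34.5 in TR at P4, with groups that overlapped near the floor. Rasd1 was under the floor on all 6 P4 arrays of the groups. Sncg, which encodes gamma-synuclein, read 433 and 413 in TG and 125 and 53.4 in TR at P60, not called (adjusted p = 0.106), and 63.9, 103 and 182 in TG and 380, 217 and 334 in TR at P4. At P4 Sncg read 565, 371 and 491 in WT, so that TG was the low group and TR overlapped WT. The change of Sncg with age was -3.86 (adjusted p = 0.038). The list medians at P4 were 0.17 for myelin proteins, -0.16 for macrophage genes, -0.02 for cell cycle and matrix genes, and 0.35 for the proteasome and 0.40 for cytosolic chaperones.

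**Figure D4:**
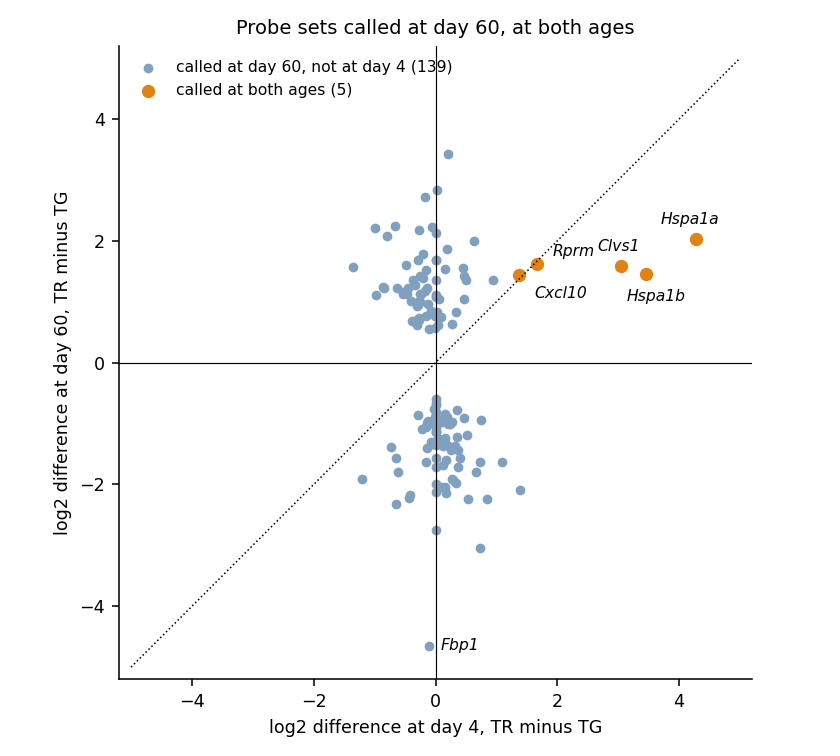
Log2 difference of TR minus TG at P60 (vertical axis) against that at P4 (horizontal axis) for the 144 probe sets called at P60. The 5 called at both ages are in orange and lie to the right of 0, and the other 139 were not called at P4. The dotted line marks equal differences.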

How the data were processed

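RNA of pooled mouse sciatic nerves was hybridised to Affymetrix arrays after 2 rounds of in vitro transcription, per the labels' protocols. Per the labels, the authors used dChip both for spline normalisation of the arrays and for the model-based index. The deposited index is a linear intensity, negative for some probe sets. The dChip version is not given in the sources used here. From the deposited instrument files only the other kind of value, the scan day, was used, per the file headers.

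Here lower values were set to a floor of 54.7 (percentile 20 of the whole table) before taking log2. Testing covered the 10994 probe sets that exceeded it on 2 arrays or more, which left out 1428. limma 3.58.1 (R 4.3.3) fitted 8 group means to 21 arrays (13 residual degrees of freedom, eBayes with a trend), with Benjamini-Hochberg adjustment within each of 5 comparisons at 0.05. Differences of genes with arrays at the floor are understated, and where a whole group lay there they are bounds. The number of arrays limits the precision, and an exact permutation test of 2 against 2 arrays cannot go below p = 0.333. The fit was tested on simulated data.

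Only probe sets with 1 symbol in the platform annotation (10833) were named, of which 10817 matched RefSeq, and 396 had several symbols and 1193 none. Named genes were Pmp22, the 12 highest and 12 lowest called changes without overlap, up to 3 called members of each of 24 lists (brightest probe set per gene), and 3 each way from the P4 contrast and from the age test. The comparison, the members and the lists were chosen with earlier results of these data known. Alternatives were the floor, the filter, median and quantile scaling, eBayes without trend, the groups compared alone, blocks for replicate number and scan day, and leaving out each array.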

Additional observations from a re-analysis of the deposited data

Results flagged for a closer look

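The following genes are listed because the TR minus TG difference at P60 departed from that at P4 in a direct test of the change with age (adjusted p under 0.05 in limma). Most of them were named by their P60 difference, and the same P60 arrays enter this test, so that the listing is not separate support. With age the difference rose by 2.81 on the log2 scale for Hbb-b2, 3.20 for Tyrobp, 2.87 for Ccl2, 1.97 for Cdk1 and 1.87 for Pkp2. It changed by -4.55 for Fbp1, -2.75 for Rasd1, -2.21 for Mertk, -2.31 for Sowaha and -2.31 for Slain1, genes that were high in TG at P60. It changed by -3.09 for Pdia4, -2.77 for Sncb, -3.48 for Cdkn1a, -2.20 for Stx6, -1.81 for Hmgcs1, -2.73 for Cd82, -1.48 for Stmn1, -1.07 for Atf4 and -2.09 for Kcnk1. On the other Cdkn1a probe set the change was -0.44 and was not called. For Hspa1a and Hspa1b the change was -2.25 and -1.99, with TR the higher group at both ages. Xist changed by -4.54 and Sncg by -3.86, neither of them called at P60 alone.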

How the results depend on the processing

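The P60 count of 144 was 1 with only the 4 arrays compared (Fbp1), 32 with scan day as a random block, and ran from 28 to 168 when single arrays were left out. Under the other floors, no filter, median or quantile scaling and no trend it lay between 115 and 193. For TR against WT the count of 517 was 276 with only those groups and 701 with the scan day block, and ran from 335 to 476 without single arrays. For TG against WT the count of 418 was 174 with the scan day block and ran from 118 to 389. At P4 the count of 16 was 25 under median scaling, 34 under quantile normalization and 7 with only those groups, and ran from 10 to 82. The age test's 132 was 78 with no filter, 46 with the scan day block and 35 with only those groups, and ran from 10 to 346. Replicate numbers do not pair the pools by any label (correlation of same-numbered deviations 0.211 over 2 pairs). A replicate block gave 192 calls at P60, 30 at P4 and 234 in the age test. Among the 43 probe sets named by rule, no TR minus TG difference at P60 that was called changed sign. Of the 37 named called probe sets, 11 passed with the scan day block, 25 with no filter and 29 with the lower floor. Medians of the myelin (-0.60 to -0.42), proteasome (0.40 to 0.65), matrix (0.21 to 0.60) and macrophage lists (0.11 to 0.89) kept their sign in all 13 settings. Those of antigen presentation, lysosome, axon contact and Schwann cell transcription regulators changed it in 2, and those of endothelium and lymphocytes in 3. The immature and injured Schwann cell, chaperone, fibroblast and smooth muscle medians changed it in 1. The neuron and axon median of 0 ran from -0.10 to 0.08.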

Other observations

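Lists of circadian clock, of glucocorticoid-induced and of sex-linked genes were added after the data were seen. The sex-linked list had 3 measured genes and no call. Of 13 clock and output genes, 3 were called lower in TR (0.623% over all genes), with a median of -0.27. The list was made after the data were seen, so that these calls do not test it. Of the 13 differences, 9 were negative and 4 positive, the largest positive one that of Arntl at 0.90, not called (adjusted p = 0.52). Per2 read 190 and 75.8 in TG and lay under the floor on both TR arrays (adjusted p = 0.0287), and Bhlhe40 read 934 and 608 in TG and 336 and 414 in TR (adjusted p = 0.0301). Dbp, a clock output gene, read 1181 and 760 in TG, 181 and 948 in TR, and 1233, 1298 and 170 in WT, so that arrays differed within groups, and the low arrays, TR_1 and the third of WT, shared a scan day. The time of day of dissection is not given in the labels, and its part in these values was not tested.

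Of 13 glucocorticoid-induced genes, 12 had negative differences, with a median of -0.48. On the brightest probe set of each gene, the 2 called lower in TR (0.623% over all genes) were Rasd1 and Per1, both among the 12 lowest called changes. Their values were seen before the list was made, so that these calls do not test it. Per1 is counted among the clock calls as well. A dimmer probe set of Klf9, chosen after its values were seen, was called lower at -1.13 ± 0.15 (adjusted p = 0.00124), as was the dimmer one of Cdkn1a given above. The brightest probe set of Klf9 gave -0.90 and was not called (adjusted p = 0.156). Fkbp5, an immunophilin, read 223 and 168 in TG and 55.4 and 52.9 in TR (adjusted p = 0.079), and Sgk1, a serum and glucocorticoid kinase, read 3960 and 5109 in TG and 2221 and 2552 in TR (adjusted p = 0.0834). Neither was called.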
